A study of Mus musculus with 12 samples.

Results

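The 8 genes described here belong to 2 arms of mechanical signalling and were followed through 4 populations of stromal cells sorted from mouse bone and marrow. They are the channel genes Piezo1, Piezo2, Trpv4 and Trpv2 and the Hippo pathway genes Yap1, Wwtr1, Tead1 and Amotl2, taken by name among 49585 annotated genes by matching Ensembl identifiers to mouse symbols. All 8 passed the filter on low counts, with 18648 genes tested in all. The cells came from wild-type male C57BL/6 mice of 8 to 10 weeks at steady state, and every population was sorted as CD45-, Ter119- and CD31-, a gate against blood and endothelial cells. Itga8+ MSCs were Itga8+Alcam+Sca-1- cells, Itga8-Alcam+ BLCs (bone-lining cells, labelled osteoblasts) were Itga8-Alcam+Sca-1- cells, Sca-1+ MSCs were Alcam-Sca-1+ cells, and CD51+CD140a+ MSCs were chosen by those 2 surface proteins. Each population had 3 RNA-seq libraries of 2000 cells. The first 3 populations were released from digested bone fragments and CD51+CD140a+ MSCs from flushed marrow with another enzyme, so that population and isolation cannot be told apart in any comparison with CD51+CD140a+ MSCs.

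PIEZO1 and PIEZO2 are large cation channels that open when the membrane is stretched, and TRPV4 and TRPV2 are cation channels of the vanilloid family that respond to swelling, heat or stretch. In the Hippo pathway, the MST and LATS kinases phosphorylate the co-activators YAP (gene Yap1) and TAZ (gene Wwtr1) and hold them in the cytoplasm. When cells spread on a stiff matrix, YAP and TAZ enter the nucleus, bind TEAD factors such as TEAD1 and switch on genes that include Amotl2, Ccn1 and Ccn2. AMOTL2 in turn binds YAP and restrains it, and chondrocytes, osteoblasts and marrow stroma are all known to use these proteins. RNA levels do not report where YAP and TAZ lie in the cell.

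The short stretches of promoter that carry the letters TEAD factors recognise are shown for the genes on which the Hippo results turn. The letters searched were GGAATG and, for the other strand, CATTCC, within the 250 bases before each RefSeq start on GRCm38.p6. Each window of 80 bases is written 5′ to 3′ on the strand of its gene, with the match in capitals.
Yap1, chr9:8004695-8004774, minus strand: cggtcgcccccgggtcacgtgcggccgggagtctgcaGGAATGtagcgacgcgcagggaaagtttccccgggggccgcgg
Wwtr1, chr3:57576004-57576083, minus strand: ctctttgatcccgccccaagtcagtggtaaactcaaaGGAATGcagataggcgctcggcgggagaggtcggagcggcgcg
Amotl2, chr9:102717702-102717781, plus strand: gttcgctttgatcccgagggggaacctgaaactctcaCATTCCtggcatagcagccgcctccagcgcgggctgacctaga
Ccn1, chr3:145650046-145650125, minus strand: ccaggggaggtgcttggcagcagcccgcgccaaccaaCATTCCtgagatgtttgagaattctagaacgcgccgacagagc
The match began 141 bases before the start of Yap1, 103 before that of Ccn1, and 136 or 170 before the 2 starts listed for Wwtr1. For Amotl2 it began 65 bases before a RefSeq start that lies inside the span of the gene given below. That window is therefore not upstream of the whole gene. Of the 8 genes, 6 had a promoter in the reference table and 4 of those held the letters (the fourth was Trpv2), against 14.4% of the 27025 genes in the table. Of 22 genes listed as YAP/TAZ targets, 15 had a promoter there and 6 held the letters. These are matches of 6 letters, a description and not evidence of binding.

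The genes lie on 7 chromosomes (GRCm38, GENCODE M21). Piezo1 is at chr8:122481698-122551329, Piezo2 at chr18:63010213-63387183, Trpv4 at chr5:114622152-114658421 and Trpv2 at chr11:62574486-62600515. Yap1 is at chr9:7931999-8004596, Wwtr1 at chr3:57455649-57575910, Tead1 at chr7:112679318-112906807 and Amotl2 at chr9:102716672-102733418. Counts were summed over exons, and 24.6% of the exon bases of Piezo1 lie opposite those of Ctu2. The kit did not mark strand, so reads of the pair cannot be told apart there.

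The libraries held 17580677 to 31332475 counts, and 3 counts were worth 0.0820 to 0.180 CPM (counts scaled to library size with TMM factors). One property of the libraries bears on the results below. The median level of genes with at least 8000 exon bases, relative to genes under 2000, was lowest in Itga8+ replicate 2 (-2.38 on the log2 scale, as a deviation from the mean over libraries) and Itga8- replicate 3 (-1.70). The other libraries lay between -0.71 and 0.96, and all 6 Sca-1+ and CD51+CD140a+ libraries were at 0.39 or above. Among transcripts of the sorting proteins, Itga8 was 35.2 to 199 CPM in Itga8+ MSCs and 0.398 to 4.17 CPM in Itga8-Alcam+ BLCs, but also 53.1 to 82.9 CPM in CD51+CD140a+ MSCs. Alcam was low even in the cells sorted for it, at 1.29 to 5.82 CPM, against at most 0.221 CPM elsewhere. Ly6a, which encodes Sca-1, was 611 to 659 CPM in Sca-1+ MSCs and at most 35.7 CPM elsewhere. Of the proteins that define CD51+CD140a+ MSCs, Pdgfra (CD140a) was 682 to 867 CPM there and 734 to 1019 CPM in Sca-1+ MSCs, and Itgav (CD51) was 121 to 195 CPM. Blood transcripts remained in spite of the gate. The sum of 10 myeloid and lymphoid markers (9 of them tested, Cd3e at 0 throughout) was 2309 to 11878 CPM in Itga8+ libraries, 4353 to 6511 CPM in Itga8-Alcam+ libraries, 886 to 1733 CPM in Sca-1+ libraries and 991 to 1700.5 CPM in CD51+CD140a+ libraries, with Mpo the highest on average. The sum of 7 erythroid markers was 1598 CPM in Itga8+ replicate 2 and 125 to 434 CPM in the other libraries, and that of 8 endothelial markers was 76.8 to 114 CPM in Sca-1+ libraries, mostly Tek, and 16.4 to 38.6 CPM elsewhere.

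Fold changes and tests came from a single edgeR quasi-likelihood fit of the 12 libraries. A gene was called when its Benjamini-Hochberg adjusted p over all 18648 genes was under 0.1 and its fold above 2. Each fold change is followed by its standard error (SE), each level is mean ± SD of n = 3 libraries, and an adjusted p is that of the edgeR fit unless another tool is named. The sources do not say whether libraries came from separate mice, so p-values measure the spread between these libraries.

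**Figure D1:**
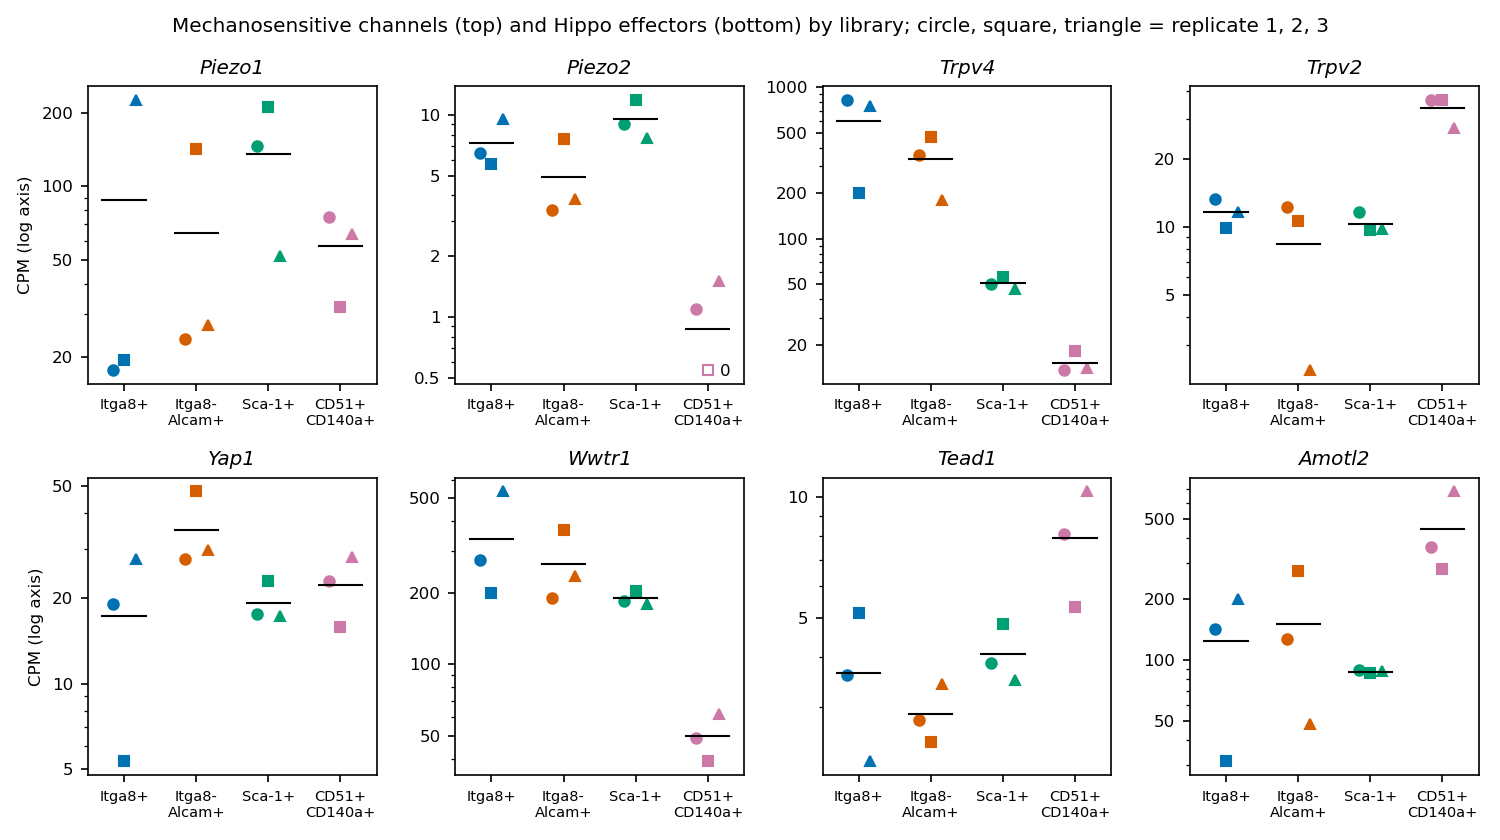
Level of each gene in each library, in CPM on a log axis, with the population mean as a bar. Trpv4 runs from 829.6 CPM in an Itga8+ library down to 13.6 CPM in a CD51+CD140a+ library without overlap between Sca-1+ MSCs, CD51+CD140a+ MSCs and the other 2 populations, while Piezo1 ranges from 17.7 to 227 CPM among the Itga8+ libraries alone. The open symbol is the library without a Piezo2 read.

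Of the 4 channels, Trpv4 had the widest range of population means. Its level was high in both populations of Alcam+ cells, low in Sca-1+ MSCs and lowest in CD51+CD140a+ MSCs, a range of 39.0-fold between Itga8+ and CD51+CD140a+ MSCs. Itga8+ libraries held 829.6, 200.02 and 754 CPM and Itga8-Alcam+ libraries 357, 466 and 180.5 CPM. Sca-1+ libraries held 50.3, 55.9 and 46.6 CPM and CD51+CD140a+ libraries 13.6, 18.1 and 14.0 CPM. The Alcam+ populations overlapped each other and neither overlapped the remaining populations, which were also apart. Itga8+ MSCs had a mean of 594 ± 344 CPM, Itga8-Alcam+ BLCs 335 ± 144 CPM, Sca-1+ MSCs 50.9 ± 4.70 CPM and CD51+CD140a+ MSCs 15.2 ± 2.46 CPM.

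Every step in that order but the first passed the test. In Itga8+ MSCs, Trpv4 exceeded its level in Sca-1+ MSCs by a log2 fold change of 3.54 (SE 0.52, adjusted p = 0.000927) and that in CD51+CD140a+ MSCs by 5.29 (SE 0.56, adjusted p = 3.86e-05). In Itga8-Alcam+ BLCs it was higher by 2.72 (SE 0.50, adjusted p = 0.00281) and 4.46 (SE 0.54, adjusted p = 9.33e-05) than in the same populations. Sca-1+ MSCs exceeded CD51+CD140a+ MSCs by 1.74 (SE 0.48, adjusted p = 0.0261). Itga8+ MSCs and Itga8-Alcam+ BLCs differed by 0.83 (SE 0.47, adjusted p = 0.554), a difference whose 95% interval runs from -0.09 to 1.75. Without Itga8+ replicate 2 this difference was 1.26 with an adjusted p of 0.0696, which is a call. The 5 calls of Trpv4 were kept in each of 23 alternative settings.

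Transcripts of cartilage cells moved with Trpv4. The summed level of 8 cartilage markers, all of them detected in each population, was 11017 to 116205 CPM in Itga8+ libraries, 10212 to 72950.2 CPM in Itga8-Alcam+ libraries, 1322 to 1604 CPM in Sca-1+ libraries and 528 to 1297 CPM in CD51+CD140a+ libraries. Within each Alcam+ population, the library with the lowest Trpv4 was also lowest in Col2a1, the collagen of cartilage. Col2a1 was 7596 CPM in Itga8+ replicate 2 against 60210.0 and 105479 CPM in the other two, and 5269 CPM in Itga8- replicate 3 against 34294 and 63149 CPM. Osteoblast markers moved in the same way within each Alcam+ population. The sum of 9 of them was 697 CPM in Itga8+ replicate 2 against 6962 and 7980 CPM, and 36861 CPM in Itga8- replicate 3 against 84620 and 115155 CPM, with 15633 to 19490.5 CPM in Sca-1+ and 8256 to 17469 CPM in CD51+CD140a+ libraries. Against Sca-1+ MSCs, 5 of the 9 were higher and 1 lower in Itga8+ MSCs, and 7 and 0 in Itga8-Alcam+ BLCs. Against CD51+CD140a+ MSCs the counts were 1 and 4, and 6 and 1. Markers of other cell types moved with the comparisons too. Of the 9 myeloid and lymphoid markers tested, 7 passed as higher for Itga8+ MSCs against either Sca-1+ or CD51+CD140a+ MSCs, and 5 and 7 for Itga8-Alcam+ BLCs. Of 8 Schwann and neural markers, 3 and 4 were higher in Itga8+ MSCs and 7 and 8 in Itga8-Alcam+ BLCs, with sums of 125 to 257 CPM in the Alcam+ libraries and 15.8 to 24.8 CPM in the others. Of 7 smooth muscle and pericyte markers, 4 were higher in each Alcam+ population when set against CD51+CD140a+ MSCs, and 3 when set against Sca-1+ MSCs. All 6 adventitial fibroblast markers were lower in each Alcam+ population when set against Sca-1+ MSCs, with sums of 96.7 to 234 CPM in Alcam+ libraries and 3077 to 3562 CPM in Sca-1+ libraries. The 8 skeletal muscle markers, 5 of them tested, summed to 6.30 to 39.9 CPM in Alcam+ libraries and 1.69 to 3.74 CPM in the others. Itga8+ replicate 2, the Itga8+ library lowest in Trpv4, was the highest of all 12 in the myeloid and erythroid sums. The part of any of these in the Trpv4 result was not tested. In bulk samples, fewer cells of a type and less RNA per cell cannot be told apart. The same 2 libraries are those lowest in long transcripts. With both left out, and also with the trend of each library on transcript length removed, the 5 Trpv4 calls remained.

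**Figure D2:**
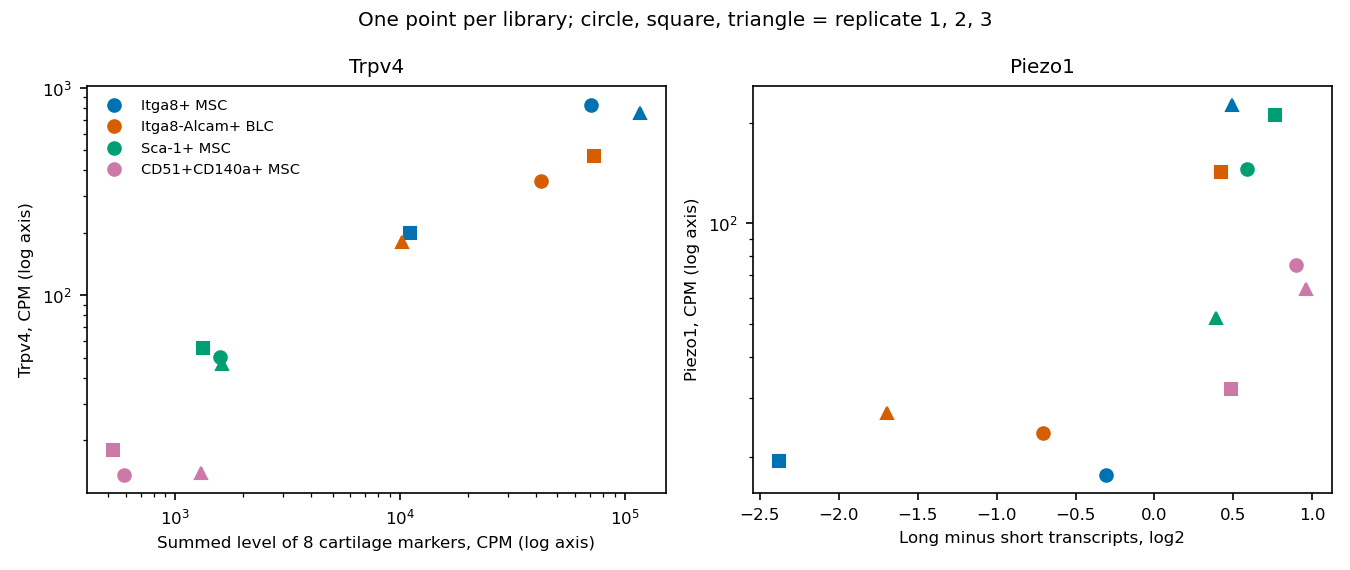
Left, Trpv4 (CPM, log axis) against the summed level of 8 cartilage markers (CPM, log axis). Right, Piezo1 (CPM, log axis) against the level of long relative to short transcripts (log2). Each point is a library, coloured by population. The Alcam+ libraries with 200.02 and 180.5 CPM of Trpv4 also have the lowest cartilage sums of their populations, 11017 and 10212 CPM, and the 4 libraries below 0 on the right-hand axis have 17.7 to 27.1 CPM of Piezo1.

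Trpv2, the closest relative of Trpv4 among the 8, had another order. It was highest in CD51+CD140a+ MSCs, at 36.5, 36.6 and 27.4 CPM, a mean of 33.5 ± 5.28 CPM. Itga8+ libraries held 13.3, 9.87 and 11.7 CPM, Itga8-Alcam+ libraries 12.3, 10.6 and 2.34 CPM and Sca-1+ libraries 11.6, 9.67 and 9.79 CPM. These 3 populations overlapped one another, and all of their libraries were below the lowest CD51+CD140a+ library. Trpv2 was lower than in CD51+CD140a+ MSCs by a log2 fold change of -1.53 in Itga8+ MSCs (SE 0.47, adjusted p = 0.0309), -1.99 in Itga8-Alcam+ BLCs (SE 0.48, adjusted p = 0.00883) and -1.69 in Sca-1+ MSCs (SE 0.48, adjusted p = 0.0286). All 3 calls were kept in each of the 23 alternative settings. In TPM, the share of transcripts after scaling by exon length, Trpv4 was 22.3 to 84.9 times Trpv2 in the libraries of both Alcam+ populations and 4.76 to 6.36 times in Sca-1+ libraries, but 0.411 to 0.562 times in CD51+CD140a+ libraries.

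Piezo2, best known as the touch channel of sensory neurons, was low in the cells from bone fragments and lower in CD51+CD140a+ MSCs. It was at 6.48, 5.71 and 9.59 CPM in Itga8+ libraries, 3.39, 7.65 and 3.84 CPM in Itga8-Alcam+ libraries and 9.07, 11.95 and 7.68 CPM in Sca-1+ libraries. CD51+CD140a+ libraries held 1.09, 0 and 1.51 CPM, and the count of 0 allows up to 0.0860 CPM, a floor that covers counting error only. No library of the other populations was as low. Piezo2 was higher than in CD51+CD140a+ MSCs by a log2 fold change of 3.06 in Itga8+ MSCs (SE 0.91, adjusted p = 0.0257), 2.51 in Itga8-Alcam+ BLCs (SE 0.89, adjusted p = 0.0522) and 3.46 in Sca-1+ MSCs (SE 0.92, adjusted p = 0.0217). The call for Itga8-Alcam+ BLCs was lost without Itga8- replicate 2 (2.04, adjusted p = 0.119), without CD51+CD140a+ replicate 1 (2.71, adjusted p = 0.102), and when those populations were fitted alone (adjusted p = 0.106). The libraries of Itga8-Alcam+ BLCs were all below those of Sca-1+ MSCs, with a log2 fold change of -0.95 (SE 0.84, adjusted p = 0.446). Piezo2 has the longest transcript of the 8, at 17162 exon bases. With the length trend removed, the difference of Itga8+ from CD51+CD140a+ MSCs was 4.01.

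Piezo1, the stretch channel of osteoblasts, chondrocytes and endothelium, varied more between libraries of a population than between populations, and it was called in none of the 6 comparisons. Itga8+ libraries held 17.7, 19.4 and 227 CPM and Itga8-Alcam+ libraries 23.7, 142 and 27.1 CPM. Sca-1+ libraries held 146, 210.2 and 52.0 CPM and CD51+CD140a+ libraries 75.2, 32.0 and 63.5 CPM. The populations all overlapped, with 1 library in each Alcam+ population far above the other two. Fitted log2 fold changes lay between -1.08 (SE 0.97, Itga8-Alcam+ BLCs over Sca-1+ MSCs) and 1.26 (SE 0.98, Sca-1+ over CD51+CD140a+ MSCs), with adjusted p from 0.453 to 0.944. For Itga8+ MSCs over Itga8-Alcam+ BLCs the 95% interval ran from -1.44 to 2.34 on the log2 scale. Without Itga8+ replicate 3 that difference turned to -1.79 (adjusted p = 0.342), that of Itga8+ from CD51+CD140a+ MSCs to -1.62, and that from Sca-1+ MSCs to -2.91 with an adjusted p of 0.0323, which is a call. Without Itga8- replicate 2 the first of these was 1.81 (adjusted p = 0.518). Fitted alone, Sca-1+ MSCs exceeded CD51+CD140a+ MSCs by 1.25 with an adjusted p of 0.0780, also a call. The level of long transcripts moved with Piezo1, which has 9935 exon bases. The 4 libraries lowest in long transcripts held 17.7 to 27.1 CPM and the other 8 held 32.0 to 227 CPM. Piezo1 was again called in no comparison with the length trend removed (log2 fold changes from -0.70 to 1.23) or with both libraries low in long transcripts left out (-0.71 to 1.25). Ctu2, whose exons lie opposite, was 18.8 to 49.1 CPM and was highest in Sca-1+ replicate 2 and Itga8+ replicate 3, the libraries with the most Piezo1.

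Compared per transcript length, Trpv4 led the 4 channels in both Alcam+ populations, at a mean of 532 TPM in Itga8+ MSCs and 256 TPM in Itga8-Alcam+ BLCs. Piezo1 (51.2 ± 30.1 TPM) and Trpv4 (46.5 ± 4.74 TPM) overlapped in Sca-1+ MSCs. In CD51+CD140a+ MSCs Trpv2 (30.1 ± 6.02 TPM) and Piezo1 (23.3 ± 10.3 TPM) overlapped, with Trpv4 at 15.0 ± 2.00 TPM. Piezo2 was the lowest of the 4 in every population, between 0.206 and 2.08 TPM.

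**Figure D3:**
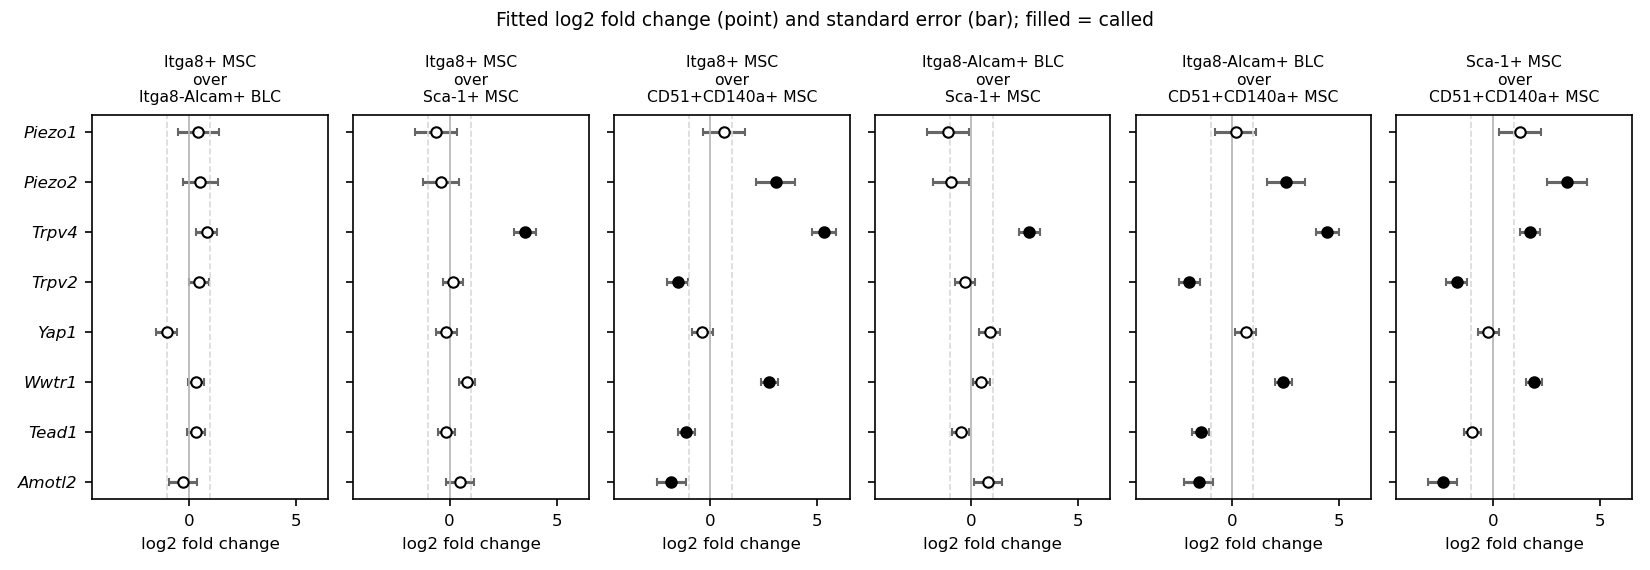
Fitted log2 fold change of each gene in each of the 6 comparisons, with its standard error as a bar. Filled points are called, dashed lines mark a fold of 2 in either direction. No gene is called between Itga8+ MSCs and Itga8-Alcam+ BLCs, Trpv4 alone is called for either of them against Sca-1+ MSCs, and 5 or 6 of 8 are called in each comparison with CD51+CD140a+ MSCs. Of all genes, 1.66% were called higher and 2.16% lower between the first pair. Against Sca-1+ MSCs the shares were 12.9% and 8.89% (Itga8+), and 14.5% and 11.9% (Itga8-Alcam+). Against CD51+CD140a+ MSCs they were 21.2% and 14.3% (Itga8+), 20.4% and 14.9% (Itga8-Alcam+), and 11.2% and 9.30% (Sca-1+).

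Of the Hippo effectors, Wwtr1, which encodes TAZ, separated CD51+CD140a+ MSCs from the cells of bone fragments. Itga8+ libraries held 274, 199.7 and 538 CPM, Itga8-Alcam+ libraries 190.3, 368 and 236 CPM and Sca-1+ libraries 185, 204 and 179.9 CPM. CD51+CD140a+ libraries held 49.2, 39.0 and 62.1 CPM. The 3 populations from bone overlapped, and the lowest of their 9 libraries was above the highest CD51+CD140a+ library. Wwtr1 was higher than in CD51+CD140a+ MSCs by a log2 fold change of 2.75 in Itga8+ MSCs (SE 0.40, adjusted p = 0.000357), 2.40 in Itga8-Alcam+ BLCs (SE 0.40, adjusted p = 0.000831) and 1.92 in Sca-1+ MSCs (SE 0.39, adjusted p = 0.00417). These calls were kept in each of the 23 alternative settings. Itga8+ and Sca-1+ MSCs differed by 0.83 (SE 0.38, adjusted p = 0.151), but by 1.08 (adjusted p = 0.0588) without Itga8+ replicate 2 and 1.12 (adjusted p = 0.0413) without both libraries low in long transcripts, which are calls.

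Yap1 differed less. Itga8+ libraries held 19.1, 5.30 and 27.5 CPM and Itga8-Alcam+ libraries 27.5, 48.0 and 29.6 CPM. Sca-1+ libraries held 17.59, 23.0 and 17.3 CPM and CD51+CD140a+ libraries 23.1, 15.8 and 28.1 CPM. Every Itga8-Alcam+ library was above every Itga8+ and Sca-1+ library, the closest pair being within rounding at 27.5 CPM, and the remaining pairs of populations overlapped. No comparison passed the test. The largest log2 fold change was -1.02 for Itga8+ MSCs over Itga8-Alcam+ BLCs (SE 0.49, adjusted p = 0.451), followed by 0.86 for Itga8-Alcam+ BLCs over Sca-1+ MSCs (SE 0.49, adjusted p = 0.232). Yap1 has 9257 exon bases, and its lowest level was in Itga8+ replicate 2, the library lowest in long transcripts. With the length trend removed, Itga8+ MSCs over Itga8-Alcam+ BLCs gave -1.17 (adjusted p = 0.0833), and Itga8-Alcam+ BLCs gave 1.42 over Sca-1+ MSCs (adjusted p = 0.00934) and 1.20 over CD51+CD140a+ MSCs (adjusted p = 0.0154), all 3 of which are then calls. With both libraries low in long transcripts left out instead, the 3 differences were -0.67 (adjusted p = 0.507), 0.97 (adjusted p = 0.0472) and 0.76 (adjusted p = 0.0916), all under a fold of 2 and so not called.

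The ratio of the co-activators differed between the populations. Per transcript length (TPM), Wwtr1 was above Yap1 in all 12 libraries. The ratio was 27.8 to 73.0 in Itga8+ libraries, 13.4 to 15.4 in Itga8-Alcam+ libraries, 17.1 to 20.4 in Sca-1+ libraries and 4.12 to 4.78 in CD51+CD140a+ libraries. The ratios of the 4 populations did not overlap. The highest ratio, 73.0, was in Itga8+ replicate 2 (Yap1 at 1.42 TPM), and Yap1 is the longer transcript of the pair, 9257 against 4779 exon bases. The part of transcript length in that ratio was not tested.

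**Figure D4:**
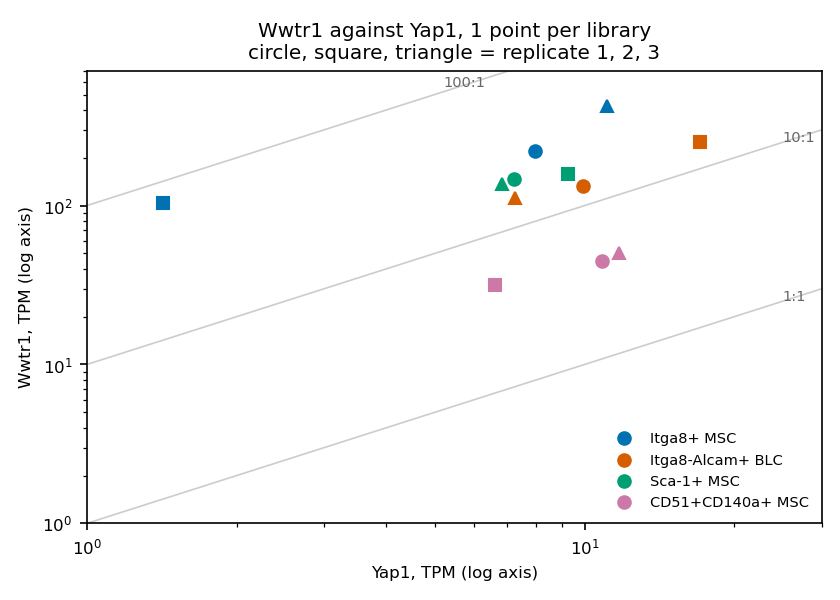
Wwtr1 against Yap1 per transcript length (TPM, both axes log), 1 point per library, with grey lines at ratios of 1, 10 and 100 to 1. CD51+CD140a+ libraries lie below the line at 10, at ratios of 4.12 to 4.78, and the other 9 libraries above it.

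Tead1, a DNA-binding partner of YAP and TAZ, was low everywhere and highest in CD51+CD140a+ MSCs. These held 8.11, 5.33 and 10.4 CPM, against 3.61, 5.14 and 2.20 CPM in Itga8+ libraries, 2.79, 2.46 and 3.42 CPM in Itga8-Alcam+ libraries and 3.87, 4.83 and 3.51 CPM in Sca-1+ libraries. All CD51+CD140a+ libraries were above all others, the closest being 5.33 against 5.14 CPM. Tead1 was lower than in CD51+CD140a+ MSCs by a log2 fold change of -1.12 in Itga8+ MSCs (SE 0.40, adjusted p = 0.0550) and -1.46 in Itga8-Alcam+ BLCs (SE 0.41, adjusted p = 0.0184), and by -0.96 in Sca-1+ MSCs without a call (SE 0.40, adjusted p = 0.134). With 13570 exon bases Tead1 is long, and with the length trend removed both calls were lost, at -0.083 (adjusted p = 0.927) and -0.51 (adjusted p = 0.510). With both libraries low in long transcripts left out, both calls were kept, at -1.41 (adjusted p = 0.0221) and -1.59 (adjusted p = 0.0119). The call for Itga8+ MSCs was also lost when those populations were fitted alone (-1.14, adjusted p = 0.129) and without Itga8+ replicate 1 (-1.11, adjusted p = 0.109), Itga8+ replicate 3 (-0.87, adjusted p = 0.117), CD51+CD140a+ replicate 1 (-1.10, adjusted p = 0.116) or CD51+CD140a+ replicate 3 (-0.88, adjusted p = 0.185). The difference of Sca-1+ MSCs became a call without CD51+CD140a+ replicate 2 (-1.18, adjusted p = 0.0993) and with scaling by library totals (-1.10, adjusted p = 0.0948).

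Amotl2, at once a target of YAP and TAZ and a brake on YAP, was highest in CD51+CD140a+ MSCs. CD51+CD140a+ libraries held 362, 283 and 685 CPM, Itga8+ libraries 142, 31.4 and 199 CPM and Itga8-Alcam+ libraries 126, 276 and 48.1 CPM. The 3 Sca-1+ libraries lay close together at 88.7, 85.7 and 88.0 CPM. All CD51+CD140a+ libraries were above all others, the closest being 283 against 276 CPM. Amotl2 was lower than in CD51+CD140a+ MSCs by a log2 fold change of -1.84 in Itga8+ MSCs (SE 0.67, adjusted p = 0.0591), -1.56 in Itga8-Alcam+ BLCs (SE 0.67, adjusted p = 0.0972) and -2.34 in Sca-1+ MSCs (SE 0.69, adjusted p = 0.0344). These calls stood near the threshold. The first was lost without Itga8+ replicate 1 (-1.94, adjusted p = 0.103), Itga8+ replicate 2 (-1.36, adjusted p = 0.121) or CD51+CD140a+ replicate 3 (-1.38, adjusted p = 0.193). The second was lost without any of 9 libraries, with values from -1.80 to -1.10 and adjusted p up to 0.294, and was kept without Itga8+ replicate 2, Itga8+ replicate 3 or Itga8- replicate 2. The third was lost without any of the 3 Sca-1+ libraries (-2.35 to -2.33, adjusted p = 0.103 to 0.107) or without CD51+CD140a+ replicate 3 (-1.88, adjusted p = 0.127). Without both libraries low in long transcripts, Amotl2 in Itga8-Alcam+ BLCs exceeded Sca-1+ MSCs by 1.20 (adjusted p = 0.0464), which is a call.

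Several marker sums also set CD51+CD140a+ MSCs apart. The summed level of 7 markers of LepR+ marrow stroma, the kind of cell this gate collects, was 45868 to 62630.2 CPM there and at most 741 CPM in every other library, and 12 immediate early and stress genes summed to 19316 to 26429 CPM against 10624 to 17049 CPM. Other sums were lowest there. Those of 7 tendon markers were 223 to 287 CPM against 3861 to 23682 CPM elsewhere, those of the 6 adventitial markers 19.4 to 28.5 CPM against at least 96.7 CPM, those of 7 smooth muscle and pericyte markers 29.7 to 82.7 CPM against 149.8 to 648 CPM, and those of 6 osteoclast markers, 4 of them tested, 149 to 163 CPM against 203 to 844 CPM. Their part in the levels of Wwtr1, Piezo2, Amotl2, Tead1 and Trpv2 was not tested.

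The calls of the 8 genes are set here beside those of all genes. Between Itga8+ MSCs and Itga8-Alcam+ BLCs, 0 of the 8 were called by edgeR, DESeq2 or limma-trend and 0 had an unadjusted p under 0.05, where 1.66% of all genes were called higher and 2.16% lower in Itga8+ MSCs. Between Itga8+ and Sca-1+ MSCs, Trpv4 was higher and no gene lower (all genes 12.9% and 8.89%). Between Itga8-Alcam+ BLCs and Sca-1+ MSCs the count was the same (all genes 14.5% and 11.9%), which is below or near the share of all genes. Against CD51+CD140a+ MSCs, Itga8+ MSCs had 3 genes higher (Trpv4, Wwtr1, Piezo2) and 3 lower (Trpv2, Tead1, Amotl2), where 21.2% and 14.3% of all genes were called. Itga8-Alcam+ BLCs had the same 6 in the same directions (all genes 20.4% and 14.9%). Sca-1+ MSCs had the same genes but for Tead1 (all genes 11.2% and 9.30%). The 3 comparisons share the CD51+CD140a+ libraries. For each called gene, permuting the 3 and 3 libraries exactly gave a two-sided p of 0.1, the smallest that this number allows.

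The other mechanosensitive channels were followed in a list of 26, of which 20 passed the filter. Between 2 and 8 were called in a comparison. Over the 6 comparisons this made 33 calls in 120 tests (27.5%), near the 23.9% of tests called over all genes, and median log2 fold changes of the list lay between -0.12 and 0.31, where all genes had -0.003 to 0.18. Kcnk2 (the stretch-activated potassium channel TREK-1) was called in 5 comparisons. It was at 12.1, 19.8 and 50.7 CPM in Itga8+ libraries, 2.04, 6.91 and 2.70 CPM in Itga8-Alcam+ libraries, 0.277, 0.712 and 1.22 CPM in Sca-1+ libraries and 16.0, 12.7 and 16.2 CPM in CD51+CD140a+ libraries. Between the Alcam+ populations its log2 fold change was 2.82 (SE 0.65, adjusted p = 0.0419). This call was lost in 5 of 23 settings, with adjusted p up to 0.182, namely the fit of those populations alone, the omission of both libraries low in long transcripts, and that of Itga8+ replicate 3, Itga8- replicate 1 or Itga8- replicate 3. Gja1 (connexin 43, the gap junction and hemichannel protein of bone cells) had its lowest mean in Itga8+ MSCs, at 335 ± 143 CPM, against 1726 ± 613 CPM in Itga8-Alcam+ BLCs (log2 fold change -2.37, SE 0.36, adjusted p = 0.00383), 576 ± 58.9 CPM in Sca-1+ MSCs and 2959 ± 292 CPM in CD51+CD140a+ MSCs. The difference of Itga8+ from Sca-1+ MSCs was not called. Gja1 has 10257 exon bases, and its 4 calls were kept in each of 23 settings. Trpc1, a cation channel subunit, was lower in both Alcam+ populations (1.04 to 5.37 CPM) than in Sca-1+ (8.35 to 12.7 CPM) and CD51+CD140a+ MSCs (6.26 to 10.99 CPM), with log2 fold changes from -2.07 (adjusted p = 0.0272) to -1.34 (adjusted p = 0.0972). The calls of Itga8+ MSCs were the less stable, lost in 7 of 23 settings against Sca-1+ MSCs and in 14 against CD51+CD140a+ MSCs, including the fit of the compared populations alone. Kcnk10, another potassium channel of this family, had no read in CD51+CD140a+ MSCs and at most 1.27 CPM elsewhere, with a mean at least 4.14-fold higher in Itga8+ MSCs, at least 4.56-fold in Itga8-Alcam+ BLCs and, in Sca-1+ MSCs, at least 6.66-fold against 3 counts per library. In that order, these calls were lost in 6, 6 and 7 of 23 settings (adjusted p up to 0.167, 0.182 and 0.190). Among those settings were limma-trend and the omission of any CD51+CD140a+ library.

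Of 5 genes for proteins that bind or tune PIEZO channels, 4 passed the filter, with 12 calls in 24 tests, where 23.9% of tests over all genes were called. Mdfic and Mdfi encode related inhibitors of myogenic factors that bind PIEZO channels. Mdfic was 21.6 to 23.9 CPM in CD51+CD140a+ MSCs and 4.70 to 11.1 CPM elsewhere, with log2 fold changes of -1.77 (SE 0.30, adjusted p = 0.00111) in Itga8+ MSCs, -1.998 (SE 0.31, adjusted p = 0.000502) in Itga8-Alcam+ BLCs and -1.21 (SE 0.30, adjusted p = 0.0139) in Sca-1+ MSCs. Mdfi was 1.85 to 4.86 CPM in the Alcam+ populations, at most 0.234 CPM in Sca-1+ MSCs and 0.322 to 0.774 CPM in CD51+CD140a+ MSCs. Tmem150c (tentonin 3) was detected at 1.66 to 3.24 CPM in Itga8+ libraries, at most 0.139 CPM in Itga8-Alcam+ libraries and with no read in the others. Against 3 counts per library, its mean in Itga8+ MSCs was at least 15.1-fold higher than the floor of Sca-1+ MSCs and at least 26.2-fold higher than that of CD51+CD140a+ MSCs. Its call over Itga8-Alcam+ BLCs was lost in 8 of 23 settings (adjusted p up to 0.217), among them the omission of any Itga8- library or of Itga8+ replicate 1 or 3. The call of Itga8-Alcam+ BLCs over CD51+CD140a+ MSCs was lost in 11 of 22 (up to 0.341). Stom, which encodes the membrane protein stomatin, was at 27.1 to 64.5 CPM and was called in no comparison.

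The calls among the Hippo kinases and their upstream regulators were mostly towards lower levels in the Alcam+ populations. Of 22 genes, all tested, 0 were called between Itga8+ MSCs and Itga8-Alcam+ BLCs (edgeR, with 2 at an unadjusted p under 0.05, and 0 by DESeq2 and limma-trend). Against Sca-1+ MSCs, 1 was higher and 5 lower in each Alcam+ population (all genes 12.9% and 8.89% for Itga8+ MSCs, 14.5% and 11.9% for Itga8-Alcam+ BLCs). Against CD51+CD140a+ MSCs, 0 were higher and 8 lower in Itga8+ MSCs (all genes 21.2% and 14.3%), and 0 and 9 in Itga8-Alcam+ BLCs (all genes 20.4% and 14.9%). The medians of the list were -0.77 and -1.11 for Itga8+ MSCs and -0.72 and -1.06 for Itga8-Alcam+ BLCs, beside all-gene medians of 0.16, 0.18, 0.12 and 0.09. The genes of this list have 3646 (Ajuba) to 17165 (Fat4) exon bases, and both libraries low in long transcripts are Alcam+ libraries. The part of transcript length in these medians was not tested. Fat4, an atypical cadherin, was 1.26 to 6.82 CPM in the Alcam+ populations, 8.62 to 12.7 CPM in Sca-1+ MSCs and 23.5 to 43.9 CPM in CD51+CD140a+ MSCs. Taok1, a kinase upstream of MST, was 6.95 to 14.3 CPM in the Alcam+ populations and 25.6 to 36.97 CPM in the others. Taok1 has 12421 exon bases, and all 4 of its calls were lost with the length trend removed, where log2 fold changes from -1.63 to -1.42 became -0.87 to -0.69. The lower level of Fat4 in Itga8+ than Sca-1+ MSCs (-1.71, adjusted p = 0.0930) was lost in 12 of 23 settings. Wwc1 (KIBRA, an upstream scaffold) was 16.1 to 19.7 CPM in CD51+CD140a+ MSCs and at most 2.04 CPM elsewhere, and it was the 1 gene called higher in each Alcam+ population than in Sca-1+ MSCs (at most 0.356 CPM). For Itga8+ MSCs that call was lost without Sca-1+ replicate 1 and when the populations compared were fitted alone, with adjusted p up to 0.139, and its log2 fold change ran from 2.45 to 5.23 with a library left out. For Itga8-Alcam+ BLCs the call was kept in each of 23 settings, and its range with a library left out was 2.64 to 5.43. Ajuba, a LIM protein that binds LATS, was 18.0 to 23.7 CPM in CD51+CD140a+ MSCs and 1.66 to 12.8 CPM elsewhere. The 31 calls of the list became 50 without Itga8+ replicate 3 and 26 with the length trend removed.

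Among the other TEAD and VGLL factors, 5 of 6 passed the filter with 9 calls in 30 tests (all genes 23.9% of tests). Vgll3, a TEAD cofactor, was 10.2 to 12.5 CPM in Sca-1+ MSCs and 6.20 to 9.25 CPM in CD51+CD140a+ MSCs, but at most 0.809 CPM in the Alcam+ populations, with log2 fold changes from -5.36 to -4.004. With a library left out these ran from -7.11 to -3.52, and all 4 calls were kept in each of 23 settings. Vgll4, a repressor that competes with YAP for TEADs, was lowest in Sca-1+ MSCs, at 9.23 to 20.3 CPM against 32.7 to 116 CPM elsewhere. Tead2 was at most 0.636 CPM in Itga8+ MSCs and 2.098 to 5.68 CPM in Itga8-Alcam+ BLCs (log2 fold change -3.14, SE 0.83, adjusted p = 0.0812), but this call was lost in 15 of 23 settings, with adjusted p up to 0.362, among them the fit of those populations alone and the omission of any library but Itga8+ replicate 2. Tead4 was at most 1.08 CPM and was called in no comparison. Per transcript length, population means of Tead1 were 0.618 to 2.36 TPM and those of Tead2 0.311 to 3.16 TPM.

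The list of 22 YAP/TAZ targets, which includes Amotl2, did not move as a block. All 22 were tested and 68 calls were made in 132 tests over the 6 comparisons (51.5%, all genes 23.9%), in both directions. Itga8+ MSCs had 2 higher and 0 lower than Itga8-Alcam+ BLCs (all genes 1.66% and 2.16%), 5 higher and 4 lower than Sca-1+ MSCs (12.9% and 8.89%), and 9 higher and 8 lower than CD51+CD140a+ MSCs (21.2% and 14.3%). Itga8-Alcam+ BLCs had 5 higher and 7 lower than Sca-1+ MSCs (14.5% and 11.9%) and 8 in each direction against CD51+CD140a+ MSCs (20.4% and 14.9%), and Sca-1+ MSCs had 7 higher and 5 lower than CD51+CD140a+ MSCs (11.2% and 9.30%). The medians ran from -0.57 to 0.81.

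Single targets followed different populations. F3, which encodes tissue factor, was 755 to 1521 CPM in Itga8+ MSCs, 428 to 955 CPM in Itga8-Alcam+ libraries, 81.1 to 111 CPM in Sca-1+ libraries and 1.13 to 4.07 CPM in CD51+CD140a+ MSCs, the order of Trpv4. Its log2 fold change between Itga8+ and CD51+CD140a+ MSCs was 8.97 (SE 0.70, adjusted p = 4.21e-06). Fjx1, a secreted Golgi protein of the Fat pathway, kept that order, at 24.0 ± 9.69, 21.4 ± 3.78, 6.57 ± 0.399 and 2.12 ± 0.978 CPM. Ccdc80, a matrix protein, was highest in Sca-1+ MSCs, at 2986 to 3229 CPM against 116 to 858 CPM elsewhere. Igfbp3, which binds insulin-like growth factors, was 479 to 695 CPM in CD51+CD140a+ MSCs and 1.94 to 38.1 CPM elsewhere, and Itga8+ MSCs exceeded Itga8-Alcam+ BLCs by 2.35 (SE 0.50, adjusted p = 0.0261). Fitting those populations alone, or omitting Itga8- replicate 3, ended the call.

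Ccn1, Ccn2 and Ankrd1, targets much used as readouts, were chosen for mention after their values were seen. Ankrd1 was near the floor, with no read in CD51+CD140a+ MSCs. Its means in Itga8+ MSCs, Itga8-Alcam+ BLCs and Sca-1+ MSCs were 0.187, 0.466 and 0.351 CPM. Ccn1 was 4438 to 5582 CPM in Itga8+ MSCs, 5201 to 9631 CPM in Itga8-Alcam+ libraries, 1310.0 to 1699 CPM in Sca-1+ libraries and 6456 to 10560.3 CPM in CD51+CD140a+ MSCs, so that Sca-1+ MSCs were lower than each of the other populations. Ccn2 was 3918 to 5006 CPM in the Alcam+ populations and 896 to 2204 CPM in the others, with log2 fold changes from 1.49 (SE 0.39, adjusted p = 0.0135) to 1.74 (SE 0.39, adjusted p = 0.00899). Of Ccn1, Ccn2 and Amotl2, none was called between Itga8+ MSCs and Itga8-Alcam+ BLCs. Ccn2 shares 23.2% of its exon bases with a gene on the opposite strand.

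**Figure D5:**
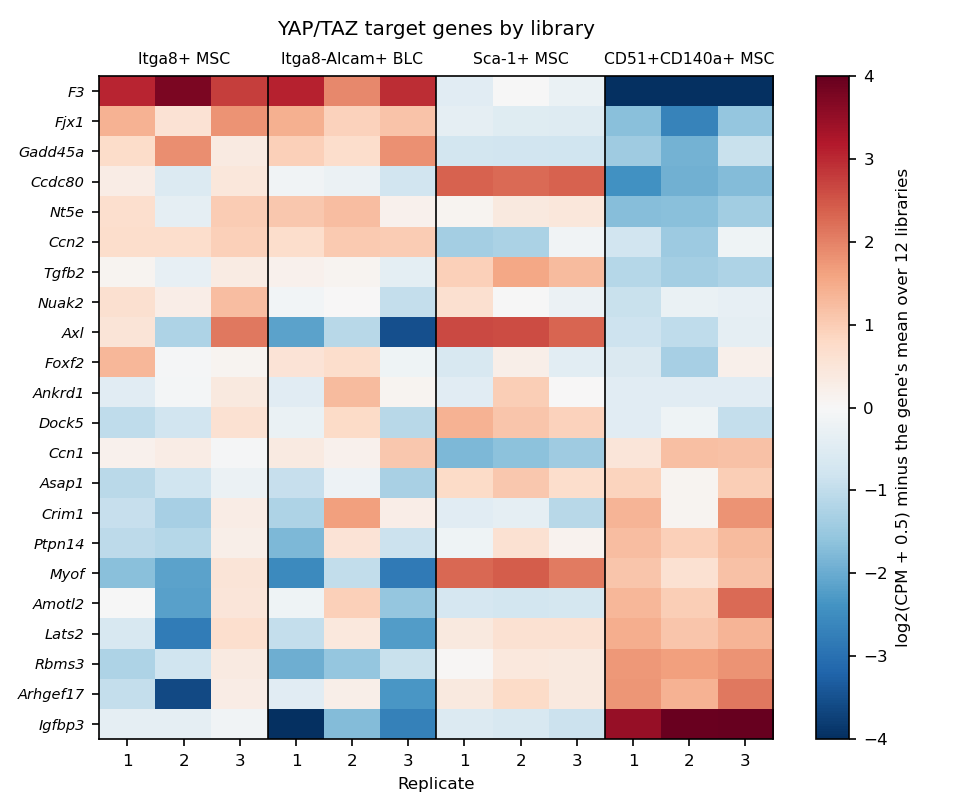
Level of 22 YAP/TAZ target genes in each library, as log2(CPM + 0.5) minus the mean of the gene over 12 libraries, with genes ordered by the difference between CD51+CD140a+ and Itga8+ MSCs and colours limited to 4 in either direction. F3 is high in both Alcam+ populations and lowest in CD51+CD140a+ MSCs, Igfbp3 is highest in CD51+CD140a+ MSCs, and Ccdc80, Axl and Myof are highest in Sca-1+ MSCs.

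The links from focal adhesions to the nucleus, 18 genes, gave 27 calls in 108 tests, which is 25% and near the 23.9% of all genes. The kindlin Fermt2 was 63.8 to 88.9 CPM in the Alcam+ populations and 228 to 341 CPM in the others, with log2 fold changes from -2.02 to -1.58. Tln2 (talin 2) was highest in CD51+CD140a+ MSCs, at 132 to 160.0 CPM, and was higher in Itga8+ MSCs than in Itga8-Alcam+ BLCs by 1.61 (SE 0.33, adjusted p = 0.0217), the one call of the list between them, which was lost when they were fitted alone. The co-activator Mrtfb was called lower in both Alcam+ populations than in the others. For Itga8+ MSCs both calls were lost with the length trend removed (-0.93, adjusted p = 0.108 against Sca-1+ MSCs and -0.44, adjusted p = 0.388 against CD51+CD140a+ MSCs), and the second in 13 of 23 settings. Srf, the factor that Mrtfb binds, was 7.31 to 9.97 CPM in Sca-1+ MSCs and 10.1 to 57.5 CPM elsewhere.

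The genes whose log2 CPM followed each of the 8 most closely over the 12 libraries are given as a description, with the libraries' populations, depth and length bias in common. For Trpv4 they were Susd5 (Pearson r = 0.989), Cyp51 (0.989) and Wwp2 (0.982), and for Wwtr1 they were Trib2 (0.977), B230206H07Rik (0.969) and Eps8l2 (0.969). For Amotl2 they were Chst2 (0.974), Il17ra (0.971) and Map3k5 (0.967), and for Yap1 Sympk (0.971), Eaf1 (0.965) and Gm11769 (0.961). For Piezo2 they were P2rx7 (0.973), Slc25a12 (0.962) and Armh4 (0.955), and for Piezo1 Cep170b (0.918), Mrc2 (0.915) and Trim44 (0.905). For Trpv2 they were Rexo1 (0.947), Rbl1 (0.945) and Spidr (0.939), and for Tead1 Irf7 (0.916), Il15 (0.903) and Eif4e3 (0.903). None of these genes is on the lists of the pathway or of the channels.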

How the data were processed

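RNA of 2000 sorted cells per library was amplified with a SMART-Seq v4 kit and made into unstranded Nextera XT libraries. The authors deposited raw counts of reads per Ensembl gene, not normalized. The submitters' processing notes list FastQC 0.11.7, Trimmomatic 0.38, HISAT2 2.1.0, SAMtools 1.9 and featureCounts 1.6.3 on mm10, while the methods text names TopHat and Bowtie2, and which aligner made the files was not settled. The annotation release was not given in the sources used here.

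A gene was tested when 1 library or more held 0.5 CPM of it, and the model was fitted with edgeR 4.0.16 (TMM, glmQLFit, glmQLFTest) in R 4.3.3, all 12 libraries together. SE is the absolute log2 fold change over the square root of F, and 95% intervals are 1.96 SE. TPM used the union of exon bases in GENCODE M21. Alternatives were DESeq2 1.42.0, limma-trend 3.58.1, RLE or total scaling, other filters and thresholds, fits of the compared populations alone, a replicate block and each library left out. The fit without the length trend and the fit without the libraries low in long transcripts were chosen after seeing the data. The length measure used genes with a mean log2 CPM above 3.

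The 8 genes and all lists were chosen with earlier results of these data known. Named genes are the 8, the sorting markers, the 4 genes of each list called in most comparisons (ties by largest fold) and, for each of the 8, the 3 genes of highest Pearson r over 12 libraries (log2 CPM, prior count 2) with a mean of at least 10 CPM. Marker lists gave sums and counts of calls. Col2a1, Mpo, Tek, Ctu2, Axl and Myof, like Ccn1, Ccn2 and Ankrd1, were named outside this rule after their values were seen. Figures used Python 3.11.15 and matplotlib 3.10.9.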

Additional observations from a re-analysis of the deposited data

How the results depend on the processing

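Over 23 alternatives, 1033 of 1104 fold changes of the 8 genes kept their direction and their side of the threshold, 33 calls were lost, 11 were gained and 27 uncalled values changed sign. Between Itga8+ MSCs and Itga8-Alcam+ BLCs the 0 calls became 1 with the length trend removed (Yap1) and 0 to 1 with a library left out (Trpv4 without Itga8+ replicate 2). Against Sca-1+ MSCs the 1 call of Itga8+ MSCs became 2 without both libraries low in long transcripts and 1 to 2 with a library left out, and that of Itga8-Alcam+ BLCs became 2 in either fit on transcript length. The labels' replicate numbers did not pair the libraries (correlations of same-numbered deviations from -0.58 to 0.20, and 13 of 36 comparisons best with the own number). With a replicate block, 4 of the 8 in place of 6 were called between Itga8+ and CD51+CD140a+ MSCs (Tead1 and Amotl2 lost, adjusted p = 0.107 and 0.101) and 5 in place of 6 between Itga8-Alcam+ BLCs and CD51+CD140a+ MSCs (Amotl2 lost), and the other 4 counts did not change.

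The sign changes were these. Under limma-trend, Piezo1 gave -0.074 for Itga8+ MSCs over Itga8-Alcam+ BLCs, and -0.32 and -0.25 for these over CD51+CD140a+ MSCs. The last was -0.27 with library totals and -0.056 with the replicate block, and Amotl2 between the Alcam+ populations was 0.018 with library totals. With the length trend removed, Itga8+ over Sca-1+ MSCs gave 0.53 for Piezo2, 0.25 for Yap1 and 0.89 for Tead1, Yap1 over CD51+CD140a+ MSCs 0.033, and Tead1 in Itga8-Alcam+ BLCs over Sca-1+ MSCs 0.46. Without both libraries low in long transcripts, Trpv2 in Itga8-Alcam+ BLCs over Sca-1+ MSCs was 0.15, and Yap1 in Itga8+ MSCs was 0.30 over Sca-1+ and 0.086 over CD51+CD140a+ MSCs. Leaving out a library, Itga8+ MSCs over Itga8-Alcam+ BLCs ranged from -1.79 to 1.81 for Piezo1, -0.15 to 0.68 for Wwtr1 and -0.78 to 0.53 for Amotl2. Over Sca-1+ MSCs, Itga8+ MSCs ranged from -0.69 to 0.26 for Yap1, -0.50 to 0.057 for Tead1 and -0.037 to 0.95 for Amotl2, and Itga8-Alcam+ BLCs from -0.72 to 0.15 for Trpv2 and -0.043 to 1.20 for Amotl2. Over CD51+CD140a+ MSCs, Piezo1 ranged from -1.62 to 1.12 in Itga8+ MSCs and -1.17 to 0.57 in Itga8-Alcam+ BLCs, and Yap1 from -0.86 to 0.083 in Itga8+ MSCs. The cause was not tested.

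Of the lists, the 33 calls of other channels became 20 at an adjusted p under 0.05 and 18 to 38 with a library left out (20 and 18 without CD51+CD140a+ replicates 1 and 3), and the 31 of Hippo regulators 22 to 50. Counts of single comparisons moved by over 1.5 times in 114 of 828 cases. The 712 genes called between the Alcam+ populations became 1203 with DESeq2, 433 with the replicate block, 276 when fitted alone and 433 without Itga8- replicate 3. The 4055 between Itga8+ and Sca-1+ MSCs became 2642, 2386 and 2492 without Sca-1+ replicates 1, 2 and 3. Library totals moved fold changes of listed genes by -0.37 to 0.27 and the share of calls higher in the first population from 43.5% to 61.3% (Itga8+ over Itga8-Alcam+), 54.9% to 42.6% (Itga8-Alcam+ over Sca-1+), 57.9% to 41.8% (Itga8-Alcam+ over CD51+CD140a+) and 54.7% to 48.4% (Sca-1+ over CD51+CD140a+). Limma-trend moved that share from 59.1% to 49.7% (Itga8+ over Sca-1+) and 59.7% to 50.9% (Itga8+ over CD51+CD140a+). With 3 libraries a group, the spread between them limits what can be resolved, as for Piezo1.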
